A study of Mus musculus with 9 samples.

Results

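The genes described here are 28 mouse genes of cholesterol and fatty acid synthesis that are controlled by the sterol regulatory element binding proteins (SREBPs). They were chosen by name from general knowledge of the pathway, with earlier results of these data known. All 28 were found among the 56289 genes of the deposited table. They comprise 7 genes of the mevalonate pathway (Acat2, Hmgcs1, Mvk, Pmvk, Mvd, Idi1 and Fdps), 11 genes that carry the pathway from squalene to cholesterol (Fdft1, Sqle, Lss, Cyp51, Tm7sf2, Msmo1, Nsdhl, Hsd17b7, Ebp, Sc5d and Dhcr7), 5 genes of SREBP control and sterol transport (Insig1, Srebf1, Srebf2, Scap and Stard4) and 5 genes of fatty acid synthesis (Fasn, Acaca, Acly, Scd1 and Scd2). Poly(A) RNA was sequenced from cells labelled as the macrophage-like line RAW264.7, of BALB/c origin, in 3 groups of 3 libraries that the study describes as biological replicates. The Con group received neither agent, and the study's methods describe PBS in place of them. The TNF-α group received 20 ng/ml recombinant human TNF-α for 24 h. The TNF-α+WBT group received the same TNF-α with 1.0 μg/ml of WBT, the herbal Wang Bi tablet, for 24 h. The labels write the agent of the last group as WBP, which was taken to be WBT. The design asks which genes differ between the groups and how the drug acts.

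Cholesterol is built from acetyl-CoA through mevalonate, farnesyl diphosphate and squalene, and the same acetyl-CoA feeds fatty acid synthesis. When sterol in the endoplasmic reticulum is low, the escort protein SCAP carries SREBPs to the Golgi, where they are cleaved, and the released part enters the nucleus and switches on most genes of both routes. Insig proteins hold SCAP back when sterol is plentiful. In macrophages these genes are known to respond to sterol load and to inflammatory signals.

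The values are FPKM, which count fragments relative to the length of the transcript and the depth of the library, and all levels below are FPKM unless stated otherwise. Library depth, estimated from the spacing of low FPKM values, came to 16895000 to 26120000 fragments per library, and the members drew between 152 estimated fragments (Tm7sf2, in its lowest library) and 49458 (Scd2, in its highest). The labelled cell type was checked against marker genes. Of 12 macrophage markers 7 had a listed value of 0 throughout, among them Adgre1, Itgam, Ptprc, Spi1 and Tyrobp, and Cd14 alone was over 1 FPKM in every library, at 4.30 to 6.16. Of 10 fibroblast markers 8 lay above 1 FPKM in all libraries, with Col1a1 at 791 to 1021, and of 8 Schwann cell markers 6 did, with Sox10 at 77.0 to 103. The marker data therefore went against the labelled cell type, and the samples are called cells here. No adipocyte or hepatocyte marker passed 1 FPKM in every library.

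All 28 genes were expressed in every library. Mean levels over the 9 libraries ran from 8.63 for Tm7sf2, a sterol reductase, to 166 for Fdps, which makes farnesyl diphosphate, with a median of 35.7. The next highest means were those of Scd2 (137), a stearoyl-CoA desaturase whose mean is raised by 1 library, Acly (122), which makes cytosolic acetyl-CoA, and Insig1 (119). Within the mevalonate pathway, Pmvk had the lowest mean (17.1), and within the route from squalene, Sqle, the epoxidase that oxidises squalene, had the highest (67.3). Srebf2, which encodes the SREBP that mainly drives sterol genes, had a mean of 87.7 ± 5.27 (SD, n = 9) and Srebf1 one of 57.1 ± 4.03 (SD, n = 9), so their ranges did not meet, at 79.6 to 94.1 and 49.7 to 62.1.

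Promoter sequence was available in the RefSeq tables (GRCm38.p6) for 22 of the 28 genes, as windows from 250 bases before to 50 bases after each start site. No window was available for Fdps, Fdft1, Sqle, Stard4, Scd1 and Scd2. The stretches of 200 bases directly upstream of the start are shown for 4 of the genes that were called in at least 1 comparison below, so that the promoters of genes that moved together can be read side by side. They are written on the strand of the gene, in lower case, with the sterol response motif TCACNCCAC and the CCAAT box on either strand (CCAAT or its complement ATTGG) in capitals. Hmgcs1 is at chr13:119690151-119690350 on the plus strand, Mvk at chr5:114444069-114444268 on the plus strand, Mvd at chr8:122443423-122443622 on the minus strand and Cyp51 at chr5:4104698-4104897 on the minus strand.
Hmgcs1: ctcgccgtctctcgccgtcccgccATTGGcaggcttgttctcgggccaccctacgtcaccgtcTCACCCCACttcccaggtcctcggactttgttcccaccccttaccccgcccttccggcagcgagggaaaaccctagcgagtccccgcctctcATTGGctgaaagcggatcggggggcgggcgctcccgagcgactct
Mvk: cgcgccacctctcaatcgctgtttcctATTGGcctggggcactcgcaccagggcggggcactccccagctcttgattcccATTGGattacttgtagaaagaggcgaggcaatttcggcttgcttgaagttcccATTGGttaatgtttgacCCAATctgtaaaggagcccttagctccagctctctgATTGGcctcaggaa
Mvd: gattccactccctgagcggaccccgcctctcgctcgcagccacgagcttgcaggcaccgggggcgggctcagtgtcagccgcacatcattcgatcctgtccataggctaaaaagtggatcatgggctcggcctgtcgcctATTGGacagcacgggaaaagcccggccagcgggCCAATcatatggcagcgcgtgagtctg
Cyp51: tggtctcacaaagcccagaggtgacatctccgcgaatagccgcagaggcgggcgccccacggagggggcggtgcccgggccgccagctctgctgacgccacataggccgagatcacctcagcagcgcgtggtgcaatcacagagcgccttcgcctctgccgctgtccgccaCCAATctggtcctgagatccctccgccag

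The letters TCACNCCAC were found in the window of 1 of the 22 genes, Hmgcs1, as TCACCCCAC starting 137 bases before the start site, and in windows of 1.44% of the 27025 genes in the table. CCAAT, the box bound by the factor NF-Y, occurred in 19 of the 22, all except Acat2, Scap and Acaca, compared with 41.1% of all genes. The GC box GGGCGG also occurred in 19 of the 22, all except Pmvk, Fasn and Acaca, compared with 38.2% of all genes. Mvk had 5 CCAAT boxes in its window and Hmgcs1 had 4, whereas Lss, Cyp51 and Insig1 each had 1. A gene with several windows was counted when any of them held the motif. The shares of all genes include genes not expressed in these cells, so they are not matched to the level of the members. The CCAAT box of Pmvk lay in the window of the start at 89454541 and not at 89459571, where Pmvk-203 starts. Those of Dhcr7 lay in the window of the start at 143830214 and not at 143823167, where Dhcr7-201 starts. The 3 motifs do not overlap each other as letters, and a match describes the sequence only. Only exact matches were counted, so a gene without a match can still hold a variant of the sterol response motif.

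The first comparison asked how the genes differed between TNF-α and Con. With TNF-α 5 genes rose, namely Hmgcs1, Mvk and Fdps of the mevalonate pathway, Cyp51 of the route from squalene and Srebf1, by 1.15-fold to 1.33-fold, and no gene fell. The 5 members of 28 called at a limma adjusted p under 0.05 all lay in the higher direction, in which 2.94% of the 25417 genes tested were called (4.86% in either direction), or 5.76% of the 9117 genes whose mean was 5 FPKM or more, a level that all 28 members pass. In the lower direction 1.93% of the tested genes and 3.71% of the 9117 were called. No member reached the study's threshold of a change over 2-fold with an unadjusted p under 0.05. That threshold was reached by 2.42% of tested genes and 1.09% of the 9117. Counting directions without a test, 22 of 28 log2 fold changes were above 0, compared with 50.7% of all genes tested. The median log2 fold change was 0.15 over the members and 0.00285 over all tested genes. In 14 members every TNF-α library lay above every Con library (16.2% of the 9117 genes did so) and in 1, Fasn, every TNF-α library lay below (15.9%). With 3 libraries against 3, an exact permutation test of a single gene cannot give a two-sided p below 0.1.

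**Figure D1:**
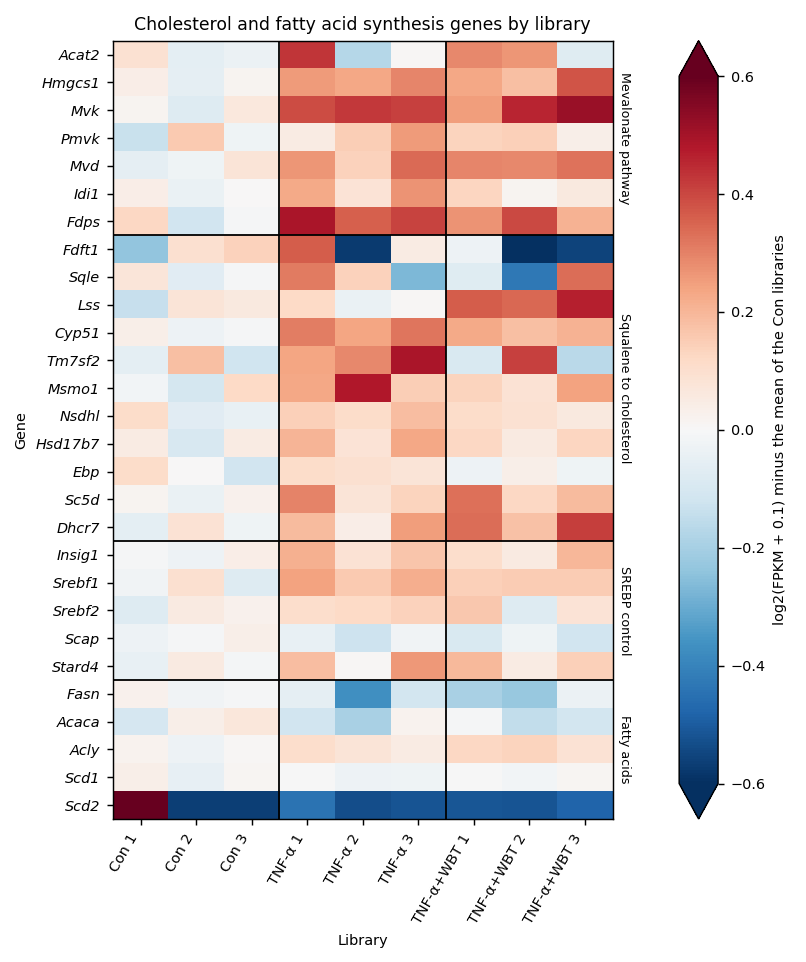
Heat map of log2(FPKM + 0.1) minus the mean of the 3 Con libraries, for the 28 genes (rows, grouped by role) in the 9 libraries (columns). Red is above the Con mean and blue below it, with the colour scale ending at 0.6 on either side. Most mevalonate and sterol rows are red in the TNF-α and TNF-α+WBT columns, the fatty acid rows are not, and the Scd2 row is set by Con 1 alone.

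In the mevalonate pathway all 7 log2 fold changes were above 0, with a median of 0.25, 3 were called, and 5 genes had groups that did not overlap. Hmgcs1, on chromosome 13 (chr13:119690379-119708260), joins acetyl-CoA and acetoacetyl-CoA into HMG-CoA. It was at 69.8, 65.5 and 68.6 in Con, 81.3, 79.8 and 83.3 in TNF-α and 79.7, 77.0 and 88.2 in TNF-α+WBT. All treated libraries therefore lay above all Con libraries, and the TNF-α and TNF-α+WBT ranges overlapped. The log2 fold change of TNF-α vs. Con was 0.26 ± 0.052 (SE), with a limma adjusted p of 0.0259.

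Mvk (chr5:114444269-114460591) phosphorylates mevalonate. Its levels were 17.3, 16.2 and 17.9 in Con, 22.5, 23.1 and 22.8 in TNF-α and 20.4, 23.6 and 24.6 in TNF-α+WBT. The TNF-α libraries were close together, the TNF-α+WBT libraries lay on both sides of them, and both treated groups were clear of Con. The log2 fold change was 0.41 ± 0.071 (SE) with a limma adjusted p of 0.0122.

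Fdps (chr3:89093588-89101959) joins isoprenoid units into farnesyl diphosphate, which serves both sterols and protein prenylation. Levels were 153, 129 and 139 in Con, 197, 180 and 185 in TNF-α and 169, 184 and 162 in TNF-α+WBT. No TNF-α library was as low as any Con library, and TNF-α+WBT lay above Con while reaching into the TNF-α range from below. The log2 fold change of TNF-α vs. Con was 0.42 ± 0.070 (SE), limma adjusted p 0.0109, the largest increase among the members. Its main transcript shares at least 100 bases at 95% identity or more with 6 other annotated genes, listed at a mean of at most 0.499 FPKM, of which Gm43738 overlaps exons of Fdps on the same strand.

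Mvd (chr8:122433601-122443422), which decarboxylates mevalonate diphosphate, gave 21.8, 22.2 and 23.9 in Con, 27.2, 24.9 and 28.7 in TNF-α and 27.7, 27.7 and 28.4 in TNF-α+WBT. Its groups did not overlap between Con and TNF-α, but its limma adjusted p of 0.0506 (log2 fold change 0.25) missed the threshold narrowly. Idi1, the isomerase that interconverts the isoprenoid building blocks, was at 28.5, 26.9 and 27.7 in Con, 32.4, 29.4 and 33.4 in TNF-α and 30.3, 28.05 and 28.9 in TNF-α+WBT, with a log2 fold change of 0.19 and a limma adjusted p of 0.104. Acat2, the cytosolic thiolase, and Pmvk, which phosphorylates mevalonate further, had overlapping groups and log2 fold changes of 0.09 and 0.15. Acat2 shares 1477 bases at 97.7% identity with Acat3, at a mean of 6.43, and 445 bases at 98.7% identity with Tcp1, at a mean of 144, so its reads could be divided between these genes. Idi1 shares 684 identical bases with Gm13502, listed at a mean of 7.62.

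**Figure D2:**
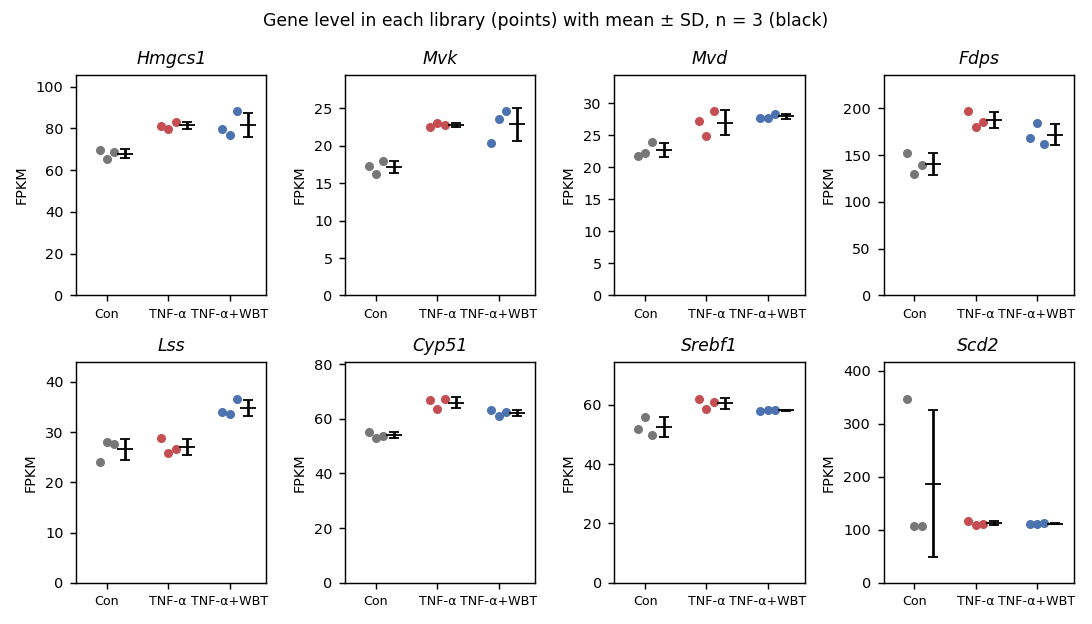
FPKM of 8 genes in each library (points, axis from 0), by group, with the mean and SD of the 3 libraries beside them in black. Hmgcs1, Mvk, Mvd, Fdps, Cyp51 and Srebf1 are higher in both treated groups than in Con, Lss is higher in TNF-α+WBT alone, and in Scd2 the Con 1 library at 347 stands far above the other 8.

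From squalene to cholesterol, 10 of 11 log2 fold changes were above 0, with a median of 0.16, 1 gene was called and 5 had groups that did not overlap. Cyp51 (chr5:4081145-4104746), the lanosterol demethylase, had the smallest adjusted p of the 28. It was at 55.2, 52.9 and 53.7 in Con, 66.7, 63.6 and 67.3 in TNF-α and 63.1, 61.1 and 62.3 in TNF-α+WBT. The 3 groups did not overlap one another, with Con lowest and TNF-α highest. The log2 fold change of TNF-α vs. Con was 0.29 ± 0.035 (SE), limma adjusted p 0.00189. Its exons overlap those of Akap9 on the opposite strand, a gene at a mean of 9.56.

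Among the later steps, Msmo1, a methylsterol oxidase, Hsd17b7, a sterol ketoreductase, Sc5d, a sterol desaturase, and Tm7sf2 also had every TNF-α library above every Con library, with log2 fold changes of 0.29, 0.17, 0.17 and 0.34, and none was called (limma adjusted p 0.149, 0.175, 0.279 and 0.340). Tm7sf2 overlaps exons of Vps51 on the same strand, a gene at a mean of 19.3. Nsdhl, a sterol dehydrogenase, Ebp, a sterol isomerase, and Dhcr7, the reductase that yields cholesterol, had overlapping groups and log2 fold changes of 0.15, 0.10 and 0.16. Lss, which closes the sterol rings, was at 24.0, 27.97 and 27.6 in Con and 28.8, 25.8 and 26.6 in TNF-α, a log2 fold change of 0.03 with overlapping groups.

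Sqle and Fdft1 were the least reproducible genes of the route. Sqle was at 69.9, 63.4 and 65.9 in Con, 82.4, 73.0 and 55.0 in TNF-α and 63.0, 49.2 and 83.6 in TNF-α+WBT. Fdft1, the squalene synthase, was at 24.9, 31.4 and 32.4 in Con, 37.9, 19.7 and 30.4 in TNF-α and 28.8, 17.9 and 19.9 in TNF-α+WBT. In both genes the treated libraries lay on both sides of Con. The 95% interval of the log2 fold change of TNF-α vs. Con ran from -0.39 to 0.51 for Sqle and from -0.63 to 0.52 for Fdft1, so that differences of the size seen in Hmgcs1 or Cyp51 lay inside these intervals. Fdft1 also overlaps exons of Ctsb on the opposite strand, a gene at a mean of 121 FPKM, and the strand setting of the quantification is not given in the sources used here.

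Among the control genes, Srebf1 was called and Srebf2 was not. Srebf1 (chr11:60199089-60222581) was at 51.7, 56.0 and 49.7 in Con, 62.1, 58.5 and 61.1 in TNF-α and 57.8, 58.2 and 58.3 in TNF-α+WBT. Con lay below both treated groups, and TNF-α+WBT lay just under the TNF-α libraries. The log2 fold change of TNF-α vs. Con was 0.21 ± 0.047 (SE), limma adjusted p 0.0430. Exons of Srebf1 overlap those of Rai1 on the opposite strand, a gene at a mean of 21.5. Srebf2 gave 79.6, 87.2 and 85.4 in Con, 90.5, 91.3 and 92.4 in TNF-α and 94.1, 79.6 and 89.1 in TNF-α+WBT. TNF-α lay above Con in every library, by 0.12 on the log2 scale (limma adjusted p 0.395), and TNF-α+WBT spanned both groups.

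Insig1, itself an SREBP target that restrains SREBP processing, was at 111, 109 and 115 in Con, 129, 118 and 125 in TNF-α and 120, 115 and 128 in TNF-α+WBT. The TNF-α libraries were all above Con (log2 fold change 0.16, limma adjusted p 0.135), and the TNF-α+WBT range overlapped that of TNF-α. Scap was at 29.3, 29.8 and 30.7 in Con, 29.0, 27.4 and 29.5 in TNF-α and 28.1, 29.3 and 27.5 in TNF-α+WBT. It was the only control gene with a log2 fold change below 0 in TNF-α vs. Con, -0.06, and its groups overlapped. Stard4, which carries cholesterol between membranes, was at 15.2, 16.2 and 15.5 in Con, 17.8, 15.7 and 18.8 in TNF-α and 17.9, 16.2 and 17.3 in TNF-α+WBT, with overlapping groups in all 3 comparisons.

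The fatty acid genes showed no common rise. Of 5 log2 fold changes 1 was above 0, the median was -0.10 and none was called. The lowest value, that of Scd2, rested on Con 1, and that of Scd1 was -0.02. Acly was at 119, 115 and 118 in Con, 126, 123 and 121 in TNF-α and 127, 128 and 124 in TNF-α+WBT. Both treated groups lay above Con, by 0.08 on the log2 scale for TNF-α (limma adjusted p 0.258). Acaca, which commits acetyl-CoA to fatty acids as malonyl-CoA, was at 21.6, 23.7 and 24.3 in Con, 21.4, 20.2 and 23.5 in TNF-α and 23.0, 20.9 and 21.4 in TNF-α+WBT, with overlapping groups.

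Fasn, the fatty acid synthase, was at 91.0, 88.0 and 88.9 in Con, 86.1, 69.2 and 82.7 in TNF-α and 77.9, 76.2 and 87.2 in TNF-α+WBT. Every treated library was below every Con library, but the log2 fold change of TNF-α vs. Con, -0.18, had a limma adjusted p of 0.352. Scd1, the other main desaturase, varied least of the 28 over the libraries, at 74.4, 70.4 and 73.4 in Con, 72.6, 71.2 and 71.4 in TNF-α and 72.5, 71.8 and 73.3 in TNF-α+WBT. Its 95% interval for TNF-α vs. Con ran from -0.09 to 0.05 on the log2 scale.

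Scd2 was set apart by 1 library. It was at 347, 107 and 107 in Con, 117, 110 and 111 in TNF-α and 111, 111 and 113 in TNF-α+WBT. Con 1 stood far above the other 8 libraries, and the excess lay in the transcript Scd2-201, which gave 347 in Con 1. With all libraries the log2 fold change of TNF-α vs. Con was -0.50 with a 95% interval from -1.39 to 0.39. Without Con 1 it was 0.07. Of the same 9117 genes, 2 (Scd2 among them) exceeded every other library by more than 2-fold in Con 1, and 0 to 2 did so in each of the other libraries. Scd2 shares 623 bases at 95.5% identity with Scd1, which was at 74.4 in Con 1.

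**Figure D3:**
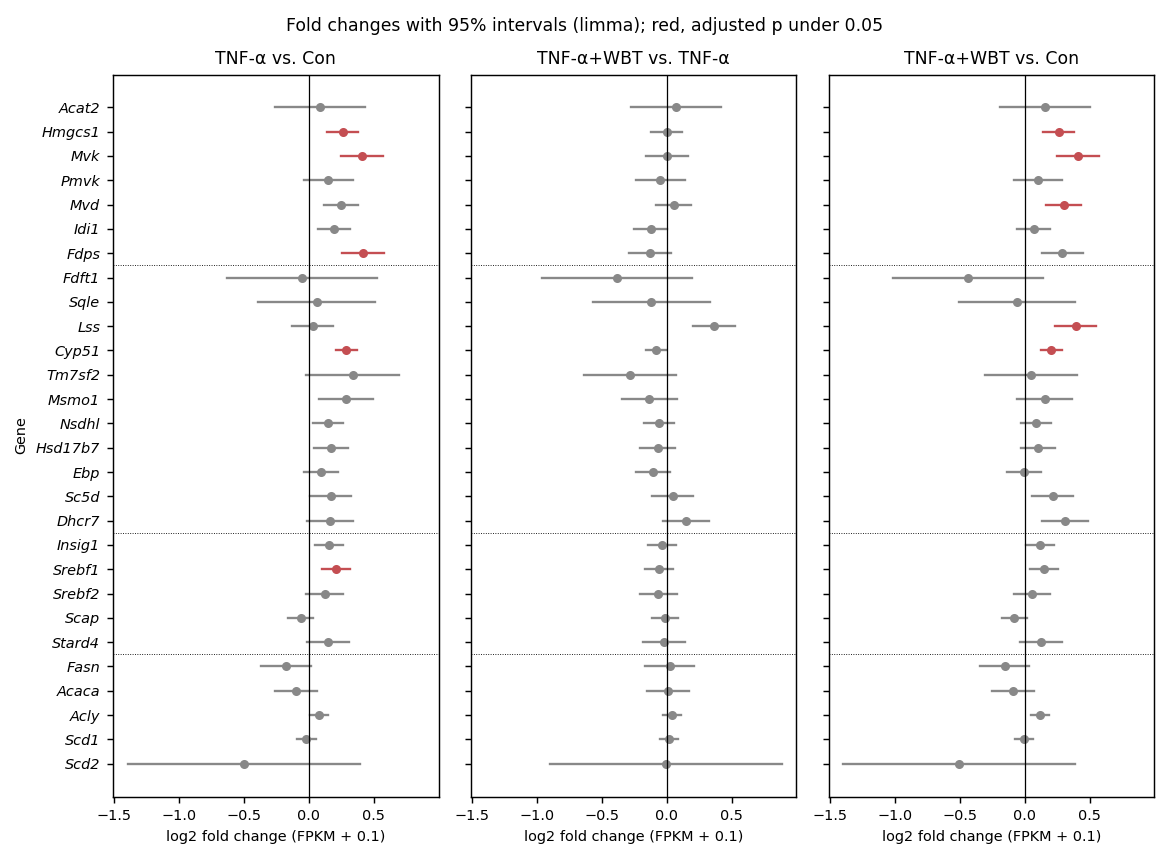
Log2 fold changes of FPKM + 0.1 (points) with 95% intervals (lines) for the 28 genes in 3 comparisons, from 1 limma model over 9 libraries. Red marks an adjusted p under 0.05. The points of the mevalonate and sterol genes lie mostly to the right of 0 in both comparisons with Con, and no interval in TNF-α+WBT vs. TNF-α is red.

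Calls in TNF-α vs. Con differed in how they held when libraries were left out. Cyp51 and Fdps were called with any of the 9 libraries left out, and Mvk in 8 of 9, with an adjusted p of 0.0502 without TNF-α 2. The TNF-α+WBT libraries among the 9 enter this comparison only through the shared spread. Without the intensity trend Cyp51 and Mvk kept their calls and Fdps did not (limma adjusted p 0.0507). Hmgcs1 lost its call without Con 1, Con 2, Con 3, TNF-α 1, TNF-α 2 or TNF-α 3 (limma adjusted p 0.0541 to 0.0987), and Srebf1 was called only without Con 2 (0.0668 to 0.135 without any other library). Nsdhl was called without Con 1, and Mvd and Idi1 without TNF-α 2, all higher. The log2 fold changes of Hmgcs1 stayed between 0.23 and 0.28 and those of Srebf1 between 0.17 and 0.25. A limma-voom model of estimated fragments, in which the division of fragments between transcripts weighs less, called 8 members higher and none lower, adding Mvd, Msmo1, Hsd17b7 and Acly and losing Srebf1 (limma-voom adjusted p 0.108, log2 fold change 0.13). That model called 7.31% of the 25319 genes it tested, next to 4.86% in the main fit. The fit without the trend called 3.38% of tested genes, and the fits without 1 library called 3.26% to 4.33%.

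Markers of other cell types also differed between TNF-α and Con. The summed level of the 10 fibroblast markers was 3487 to 3733 FPKM in Con, 3869 to 3946 in TNF-α and 3772 to 3867 in TNF-α+WBT. Single fibroblast markers went both ways. Col1a1 was at 791 to 901 in Con and 1004 to 1021 in TNF-α. Pdgfrb was at 69.2 to 71.5 in Con and 48.1 to 49.3 in TNF-α, and Dcn at 2.75 to 3.21 and 1.34 to 2.27. The sum of the 8 Schwann cell markers was 822 to 871 in Con, 688 to 734 in TNF-α and 732 to 763 in TNF-α+WBT. In bulk RNA, fewer cells of a type and less RNA per cell cannot be told apart, and the part of these shifts in the results above was not tested. The summed level of the 12 macrophage markers was 5.87 to 7.23, 6.86 to 7.92 and 7.09 to 8.26, most of it Cd14.

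The second comparison, TNF-α+WBT vs. TNF-α, asked what the drug changed in stimulated cells. No member was called at a limma adjusted p under 0.05, where 1 gene of 25417 (0.00393%) was called over the whole table. At an unadjusted p under 0.05 there were 2 members, Lss higher and Cyp51 lower. By that measure 2.88% of tested genes were higher and 3.43% lower (3.49% and 3.83% of the 9117). Of the members 0 also passed 2-fold (1.12% of tested genes and 0.0439% of the 9117 did). The limma-voom model called 0 members (0.0197% of the genes it tested). The median log2 fold change of the members was -0.03 and that of all tested genes was -0.00195. In 1 member, Lss, every TNF-α+WBT library was above every TNF-α library (5.39% of all tested genes, 6.97% of the 9117). In 4, Cyp51, Nsdhl, Ebp and Srebf1, every library was below (5.61% and 6.58%). This comparison shares its TNF-α libraries with the first, so a high TNF-α library moves both in opposite directions, and their values are not independent.

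Lss (chr10:76531588-76557138) had the smallest p of the members in this comparison. It was at 28.8, 25.8 and 26.6 in TNF-α and 34.1, 33.7 and 36.6 in TNF-α+WBT, next to 24.0, 27.97 and 27.6 in Con. The TNF-α+WBT libraries were thus above all 6 others. The log2 fold change of TNF-α+WBT vs. TNF-α was 0.36 ± 0.070 (SE), with an unadjusted p of 0.000696 and a limma adjusted p of 0.349, and it stayed between 0.33 and 0.41 with each library left out. Scaled to depth as estimated fragments, Lss was at 111, 125 and 121 in Con, 132, 117 and 125 in TNF-α and 157, 147 and 164 in TNF-α+WBT, and TNF-α+WBT again overlapped neither of the other groups.

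Cyp51 lay in the other direction without a call, with a log2 fold change of -0.08 ± 0.035 (SE), an unadjusted p of 0.0405 and a limma adjusted p of 0.766. For the genes called in TNF-α vs. Con, the 95% intervals of TNF-α+WBT vs. TNF-α were -0.12 to 0.12 for Hmgcs1, -0.16 to 0.16 for Mvk, -0.29 to 0.03 for Fdps, -0.16 to -0.00457 for Cyp51 and -0.17 to 0.05 for Srebf1. Against Con, the same genes in TNF-α+WBT had 95% intervals of 0.14 to 0.38, 0.25 to 0.57, 0.13 to 0.45, 0.13 to 0.28 and 0.04 to 0.26, none of which holds 0. These genes were picked by their calls against the same Con libraries, so these intervals are not independent of that choice. Fdps and Srebf1 were not called in TNF-α+WBT vs. Con (limma adjusted p 0.0661 and 0.160). In TNF-α+WBT vs. TNF-α the 5 fatty acid genes had log2 fold changes between -0.00627 and 0.04. For Scd2 the interval was wide, -0.90 to 0.89, and Con 1 enters the pooled spread on which it rests.

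The deposited transcript table shows where gene values were less certain. Of 163 transcripts of the members, 154 were tested, and 1 was called in TNF-α vs. Con (0.635% of 80149 transcripts were), Cyp51-201. It was at 52.2, 50.1 and 51.0 in Con, 63.4, 59.7 and 63.1 in TNF-α and 59.4, 57.2 and 60.5 in TNF-α+WBT, and Con did not overlap the treated groups (log2 fold change of TNF-α vs. Con 0.28, limma adjusted p 0.0402). In TNF-α+WBT vs. TNF-α 0 were called (0.0424% of all transcripts were), with Lss-204 the lowest in p among the Lss transcripts at an unadjusted 0.000682.

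The coding transcript Lss-201 was at 12.9, 19.7 and 17.7 in Con, 13.9, 10.1 and 0.62 in TNF-α and 26.4, 23.9 and 26.8 in TNF-α+WBT. The retained intron transcript Lss-206 ran the other way, at 3.30, 1.61 and 2.17 in Con, 4.72, 4.54 and 9.71 in TNF-α and 2.00, 1.94 and 2.40 in TNF-α+WBT, and Lss-204 did likewise. TNF-α 3, in which Lss-201 was lowest, thus had the highest level of the retained intron forms, and neither transcript passed the limma threshold (adjusted p 0.943 and 0.605 for TNF-α+WBT vs. TNF-α).

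In Fdft1, the low gene values of TNF-α 2, TNF-α+WBT 2 and TNF-α+WBT 3 went with a change of transcript. Fdft1-201 was at 6.09, 4.84 and 4.30 in these 3 libraries and at 12.02 to 28.1 in the other 6, whereas Fdft1-204 was at 10.9, 11.3 and 10.9 in them and at most 2.07 in the others. The listed transcripts of Fdft1 did not add up to its gene value, which was higher by 9.98 in Con 2, 8.25 in TNF-α 1 and 8.47 in TNF-α+WBT 1, while those of the other 27 members did within 0.001 FPKM. In Sqle, Sqle-202 ran from 11.1 to 43.0 and Sqle-201 from 11.2 to 38.5 over the libraries, in different orders. In Fasn, TNF-α 2, the library with the lowest gene value, had Fasn-205 at 0 and Fasn-201 at 65.0, where the other libraries had 47.2 to 56.6 and 24.1 to 29.9. Whether these shifts are changes in RNA or in how fragments were divided was not tested.

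**Figure D4:**
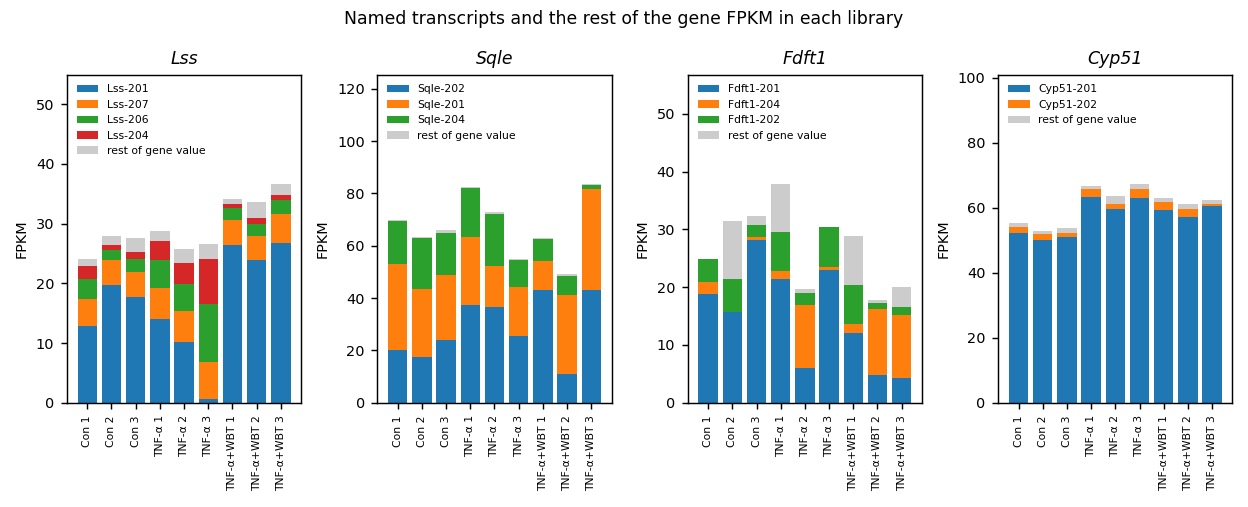
Stacked bars of transcript FPKM (colours) within the gene FPKM (full bar) of Lss, Sqle, Fdft1 and Cyp51 in each of the 9 libraries, with the axis from 0. Grey is the rest of the gene value, which in Fdft1 is up to 9.98 FPKM that its listed transcripts do not hold. Cyp51 is nearly all Cyp51-201 in every library, while the make-up of the other 3 genes differs between libraries of the same group, as in Fdft1, where TNF-α 2 has 6.09 of Fdft1-201 and TNF-α 1 has 21.5.

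Srebf1 is transcribed from several start sites. Srebf1-207, which starts 6 bases from the RefSeq start at position 60210471 of chromosome 11, was at 6.63, 5.56 and 6.35 in Con, 7.33, 8.41 and 9.11 in TNF-α and 8.11, 7.74 and 8.57 in TNF-α+WBT. Both treated groups were above Con, with a log2 fold change of TNF-α vs. Con of 0.41 ± 0.11 (SE), an unadjusted p of 0.00636 and a limma adjusted p of 0.292. Srebf1-201, which starts 23 bases from the RefSeq start at 60220627, was at 7.79, 8.37 and 6.19 in Con, 7.96, 7.35 and 6.94 in TNF-α and 7.74, 7.72 and 5.95 in TNF-α+WBT, with overlapping groups. The most abundant transcript, Srebf1-203, was at 28.8 to 33.9 over all libraries, with a log2 fold change of TNF-α vs. Con of 0.07. Srebf1-211, annotated as a processed transcript, was at 2.52, 2.67 and 1.87 in Con and 3.47, 4.13 and 4.78 in TNF-α. Its log2 fold change of 0.79 was larger than that of Srebf1-207 (unadjusted p 0.00224, limma adjusted p 0.170).

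The third comparison set TNF-α+WBT against Con, with the same Con libraries as the first and the same TNF-α+WBT libraries as the second. In it 5 members rose and none fell, namely Hmgcs1 (log2 fold change 0.26, limma adjusted p 0.0298), Mvk (0.41, 0.0153), Mvd (0.30, 0.0261), Lss (0.39, 0.0180) and Cyp51 (0.20, 0.0139). Of all tested genes 2.31% were called higher and 1.40% lower, 3.71% in all. Of the 9117 genes 4.58% were called higher and 2.68% lower. No member passed 2-fold (2.29% of tested genes and 0.888% of the 9117 did). The median of the members was 0.11 and that of all tested genes -9.18e-05. Fdps (0.29, limma adjusted p 0.0661), Dhcr7 (0.31, 0.0754) and Acly (0.12, 0.0931) did not pass. In 12 members every TNF-α+WBT library was above every Con library (10.2% of all tested genes, 15.0% of the 9117). In Fasn every library was below (9.25% and 14.2%). Scd2 had a log2 fold change of -0.50 with all libraries and 0.06 without Con 1.

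These calls depended on which libraries were fitted. No member was called without TNF-α+WBT 3, 1 was without TNF-α+WBT 1, 2 were without Con 2, 3 each without Con 1, Con 3 or TNF-α+WBT 2, and 4 each without TNF-α 1, TNF-α 2 or TNF-α 3. Lss was called in 7 of the 9 fits, Mvk and Cyp51 in 5, Mvd in 4 and Hmgcs1 in 1, while their log2 fold changes stayed above 0 in all of them, the lowest being 0.19 for Cyp51. Fdps was called without Con 1 and Srebf1 without Con 2. Over all tested genes these fits called 2.31% to 3.21%.

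Other genes of lipid metabolism give the surroundings. Among genes of sterol uptake and storage, Npc2, which binds cholesterol in lysosomes, was at 75.2, 74.7 and 72.1 in Con and 83.6, 89.3 and 88.6 in TNF-α. Its groups did not overlap, and it rose with TNF-α (log2 fold change 0.24, limma adjusted p 0.00581).

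Of 8 further genes of SREBP processing, 1 rose and 2 fell with TNF-α. Insig2, the other Insig gene, was at 16.0, 17.9 and 17.2 in Con, 22.4, 22.4 and 22.4 in TNF-α and 21.9, 25.2 and 22.1 in TNF-α+WBT, so that both treated groups lay above Con (TNF-α vs. Con 0.39, limma adjusted p 0.00828; TNF-α+WBT vs. Con 0.44, 0.00623). Mbtps2, a protease that cuts SREBPs in the Golgi, was at 18.4, 17.7 and 19.1 in Con and 16.0, 15.9 and 16.4 in TNF-α (-0.19, limma adjusted p 0.0372), and Erlin1, a protein of the endoplasmic reticulum membrane, at 14.3, 16.2 and 15.3 and 12.05, 12.01 and 13.3 (-0.29, 0.0469). Both were lower in every TNF-α library. None of the 11 isoprenoid genes, the 13 further fatty acid genes or the 9 tested genes of sterol efflux and its control was called in TNF-α vs. Con.

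Abca1, the cholesterol exporter, was at 1.58, 1.54 and 1.52 in Con, 1.19, 1.34 and 1.28 in TNF-α and 1.22, 1.51 and 1.60 in TNF-α+WBT. Every TNF-α library was below Con, by 0.26 on the log2 scale (log2 fold change -0.26, limma adjusted p 0.440). Ch25h, which makes an oxysterol that blocks SREBP processing, was at 0.08, 0.03 and 0.04 in Con, 0.00, 0.06 and 0.04 in TNF-α and 0.19, 0.16 and 0.17 in TNF-α+WBT, so the last group was highest, at 4.01 to 4.95 estimated fragments per library (limma adjusted p 0.404 for TNF-α+WBT vs. TNF-α). In TNF-α+WBT vs. TNF-α none of the genes of these lists was called, and in TNF-α+WBT vs. Con 3 were, all higher (Npc2, Insig2 and Me1, the malic enzyme that supplies NADPH).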

How the data were processed

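The authors deposited FPKM per gene and per transcript for 9 poly(A) libraries (3 Con, 3 TNF-α, 3 TNF-α+WBT), which the study's workflow traces to HISAT2, StringTie and Ballgown. Versions, strand setting and genome build are not given in the sources used here. For 27 of the 28 members, all but Fdft1, the gene FPKM was the sum over its transcripts (within 0.001 FPKM), so the way StringTie divides fragments between them moves gene values. Each column was matched to 1 library by its name, and 0 pairs of libraries held the same values. Gene positions and transcripts were taken from GENCODE M21 (GRCm38). The depth of each library is not given in the sources used here and was estimated from the smallest steps of the FPKM values (49.0% to 53.8% of low values lay within 0.1 of a whole fragment, where 20% would by chance), so fragment numbers are approximate.

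The 28 members, the other gene lists, the motifs and the tests were chosen with earlier results of these data known. The 25417 genes with FPKM above 0 in 3 or more libraries were compared on log2(FPKM + 0.1) in 1 limma model over the 9 libraries (limma 3.58.1, R 4.3.3, lmFit and eBayes with an intensity trend), and p-values were adjusted by Benjamini-Hochberg over all tested genes. The pseudocount understates changes of low genes. A gene was called at an adjusted p under 0.05, and changes over 2-fold with an unadjusted p under 0.05, the study's threshold, were counted beside it. Transcripts were tested in the same way. Values were given for each library for members called in any comparison and for a fixed list of pathway genes, and other lipid genes were named when called in TNF-α vs. Con, up to 3 per list, with Abca1, Ch25h and Insig2 and some genes that are not reported here. Sqle, Fdft1, Acat2, Idi1 and Srebf1 transcripts, Me1, the Srebf1 start sites and the single fibroblast markers compared between groups were picked after their values were seen. Sequence shared with other genes was searched with blastn (at least 95% identity over 100 bases). The model was tested on simulated data. The alternatives were another pseudocount (0.01 or 1), a mean of at least 1 FPKM or no filter, no trend, a fit of the compared groups alone, quantile normalization, centring on medians, summed transcripts, the replicate number as a block, limma-voom on estimated fragments and leaving out each library.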

Additional observations from a re-analysis of the deposited data

How the results depend on the processing

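No member passed 2-fold in any comparison under any alternative, and no member was called in TNF-α+WBT vs. TNF-α under any of them. In TNF-α vs. Con 5 members were called. That number was 2 (Mvk and Cyp51) without the intensity trend, where 3.38% of tested genes were called, and 8 with limma-voom on estimated fragments (7.31%). It was 3 to 4 with each library left out (3.26% to 4.33%). Under the other alternatives it stayed between 4 and 6 (3.51% to 10.8%). In TNF-α+WBT vs. Con it was 5 (3.71% of tested genes). It became 0 without the trend (2.49%), 3 when only the groups compared were fitted (2.55%) and 0 to 4 with each library left out (2.31% to 3.21%). Otherwise it lay between 4 and 7 (2.76% to 8.32%). Calls in the other lipid gene lists numbered 5 in TNF-α vs. Con, 1 without the trend, 2 when only the groups compared were fitted, 3 with the replicate block and 2 to 4 with each library left out. In TNF-α+WBT vs. Con they numbered 3, 1 without the trend, 6 with limma-voom and 2 to 3 with each library left out. A fit with a library left out has fewer samples. The cause of the shifts in these numbers was not tested.

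The median log2 fold change of the members ran from 0.13 to 0.20 in TNF-α vs. Con, from -0.062 to -0.00199 in TNF-α+WBT vs. TNF-α and from 0.10 to 0.12 in TNF-α+WBT vs. Con with each library left out, and was highest in the first and lowest in the second without TNF-α 2. No member changed direction in a comparison in which it was called, under any alternative run. With a library left out the log2 fold change crossed 0 for 5 members in TNF-α vs. Con (Acat2, Fdft1, Sqle, Lss and Scd2), 13 in TNF-α+WBT vs. TNF-α and 5 in TNF-α+WBT vs. Con, and under the other alternatives for 1 (Fdft1), 5 and 1 (Srebf2), none of them called in that comparison. Scd2 went from -0.50 to 0.068 in TNF-α vs. Con and from -0.50 to 0.062 in TNF-α+WBT vs. Con without Con 1, and to -0.78 and -0.79 without Con 2 or Con 3.

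No pairing of the libraries by replicate number was seen. Deviations of libraries with the same number correlated by -0.05 to 0.10 between groups, and those with different numbers by -0.12 to 0.12. Not every library correlated best with its own number. Correlations this weak, from groups of 3 libraries, cannot exclude a shared batch. With the replicate block 5 members were called in TNF-α vs. Con (Mvd in place of Srebf1), 0 in TNF-α+WBT vs. TNF-α and 4 in TNF-α+WBT vs. Con (Lss was not), and 893 genes in place of 1236 over the table in the first.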
